A study of Macaca mulatta with 6 samples.

Results

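Messenger RNA of the proteasome was compared between morphine and saline in 38 genes of subunits, assembly factors and an inhibitor, out of 23191 genes in the deposited table. Members were the rows whose rhesus gene identifier carries a symbol beginning PSMA, PSMB, PSMC, PSMD, PSMF or PSMG and whose mean over the 6 libraries was at least 10 normalized counts. A normalized count is the number of reads of a gene divided by 1 size factor per library. There were 45 such symbols, of which 39 had a row, and PSMB11 was below the minimum, at a mean of 0.334. The member with the lowest mean was PSMA8, at 20.1. PSMA5, PSMB6, PSMB7, PSMB10, PSMD7 and PSMG2 were not analysed here. The 38 members comprised 14 genes of the core particle, 16 of the regulatory particle, 6 assembly factors, the inhibitor gene PSMF1 and PSMC3IP. The last is a gene of meiotic recombination that shares only the prefix of its name with the proteasome.

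Polyadenylated RNA was sequenced from material described as purified cortical neurons of rhesus monkeys (Macaca mulatta). All were males aged 3 to 4 years, and each group had 3 libraries. Morphine, an opioid agonist, was injected subcutaneously over 90 days in 3 daily doses, which started at 3 mg/kg each and stood at 15 mg/kg from day 29. Controls received saline at 0.5 mL/kg on the same schedule, and no genetic change is named for either group. The protocol lists 4 monkeys, 2 per group, and the description labels give a single animal-style code to all libraries of a group. Some libraries of a group must share an animal, so the p-values below reflect the spread between libraries and are too small for a statement about animals. Treatment and animal cannot be told apart.

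The proteasome is the protease that degrades proteins tagged with ubiquitin. Its core particle is a barrel of alpha rings, which gate the entrance, and beta rings, which carry the proteolytic sites. The regulatory particle caps the barrel: its lid removes ubiquitin, its base holds ubiquitin receptors and a ring of ATPases that unfold the substrate. Dedicated chaperones assemble both particles. In neurons the proteasome takes part in the turnover of synaptic proteins. When its activity is blocked, the transcription factor NFE2L1 raises the expression of many of its subunits together.

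The libraries had 31238653 to 36345095 recovered reads each. Of 16595 genes tested 4631 passed at a limma adjusted p under 0.05 (27.9%). The libraries, described as purified neurons, held neuronal and glial transcripts. All 12 neuronal markers of the fixed list were measured, with means of at least 4502 normalized counts, and their sum ranged from 215637 to 219869 under morphine and from 273053 to 283853 under saline. Of these markers 7 fell and 2 rose. Of 10 astrocyte markers 5 fell and 2 rose, with sums of 252576 to 255705 in morphine and 300527 to 305117 in saline. Of 7 microglial markers 4 rose and 2 fell, with sums of 7758 to 8315 in morphine and 5342 to 5681 in saline. Of 7 oligodendrocyte markers 3 rose and 2 fell, with sums of 265811 to 268050 in morphine and 259685 to 264231 in saline. The highest mean of an oligodendrocyte marker was 197809 (MBP), above that of the highest neuronal marker, 85285 (SNAP25). The description as purified neurons thus does not cover all of the RNA. Of 9 endothelial and mural markers 1 rose and 3 fell. No marker with a row was at 0 in all libraries. In such bulk RNA, fewer cells of a type and less RNA per cell cannot be told apart, and the part of these shifts in the values below was not tested.

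Most proteasome genes were slightly lower in the morphine libraries, and few of the differences passed the test. Fold changes and their percentages are on the scale of log2(normalized count + 1). In limma on that scale 7 of the 38 members fell and 1 rose at an adjusted p under 0.05, which is 18.4% and 2.63% of them. Over all genes tested, 15.0% fell and 12.9% rose, so that the share of members that fell was near the background. In a separate limma fit of genes with a mean of at least 50, 7 of 37 members fell, against 19.3% of all genes in that fit. PSMA8 was not in it, and PSMB4 fell there. PSMA8 passed the minimum only through its saline libraries. Without it 6 of 37 fell (16.2%), and every other member had a mean of at least 252.0 normalized counts.

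The direction was more one-sided than the calls. The log2 fold change, morphine minus saline, was below 0 in 29 of 38 members. Without PSMA8 it was below 0 in 28 of 37 (75.7%), against 49.4% of all genes tested. Its median was -0.13 over the members, or -0.12 without PSMA8, and 0.01 over all genes tested, whose middle 50% ran from -0.26 to 0.26. All 3 morphine values lay below all 3 saline values in 17 members (44.7%), against 24.6% of all genes tested. Without PSMA8 this was 16 of 37 (43.2%). The opposite held for 3 members (7.89%), against 24.1%. The 3 were PSMF1, the lid gene PSMD3 and the core gene PSMB2. With upper-quartile scaling 27 of 38 fold changes were below 0, that of PSMA8 among them.

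**Figure D1:**
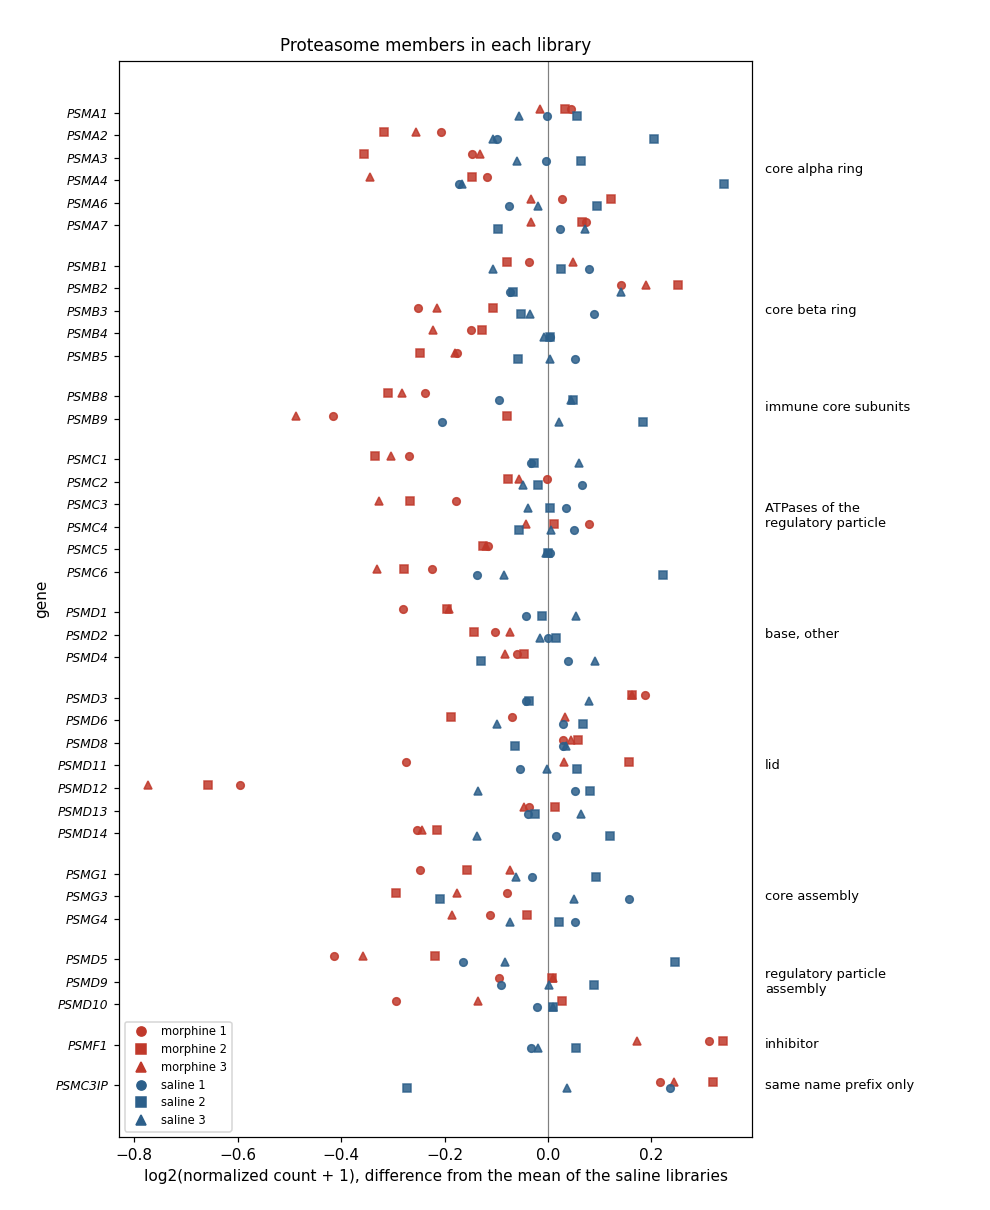
Each row is a member and each point a library: log2(normalized count + 1) minus the mean of the 3 saline libraries, on a linear log2 axis, with red for morphine, blue for saline and symbols for the replicate number. PSMA8, with 0 reads in morphine, is not drawn. PSMD12 lies farthest to the left, and the morphine points of PSMF1, PSMB2 and PSMD3 lie to the right of their saline points.

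The 3 morphine libraries were alike in this. Over the 29 subunits of the core and regulatory particles other than PSMA8, the median log2 difference from the saline mean was -0.12 in morphine library 1, -0.12 in library 2 and -0.12 in library 3. All 3 morphine values lay below all 3 saline values in 14 of these genes (48.3%), against 24.6% of all genes tested. For single libraries the share of all genes is not given. Of these 29 genes, 16, 16 and 18 were below the lowest saline library in morphine libraries 1, 2 and 3. Their summed level was 94671 ± 784 normalized counts in morphine and 102045 ± 497 in saline (mean ± SD, n = 3 libraries per group), a difference of -7.23%. The sum of the 13 core genes went from 34206 ± 733 to 31799 ± 514, and that of the 16 regulatory particle genes from 67840 ± 382 to 62872 ± 344 normalized counts. The 6 assembly factors summed to 5846 ± 67.0 in saline and 5301 ± 184 in morphine. In each of these sums the groups did not overlap, and no test was made of them. As given above, the sums of the neuronal and astrocyte markers were also lower in morphine, and those of the microglial and oligodendrocyte markers were higher. The sum of the endothelial and mural markers was lower (11403 to 12002 in morphine, 13544 to 13763 in saline).

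**Figure D2:**
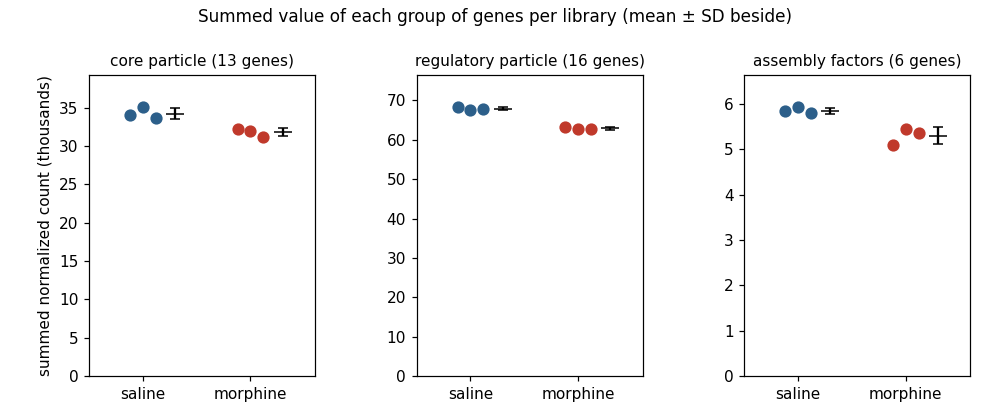
Summed normalized counts, on the scale named on the axis, of the core particle (13 genes, without PSMA8), the regulatory particle (16 genes) and the assembly factors (6 genes) in each library, with the mean ± SD of the 3 libraries beside the points and axes that start at 0. The morphine points lie below the saline points in each panel, and the group means differ by -7.03%, -7.32% and -9.32%.

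Among the 6 measured alpha subunits of the ordinary core, 0 passed in limma, against 27.9% of all genes tested. PSMA3 alone had an unadjusted p under 0.05, and the fold changes lay on both sides of 0. PSMA2, PSMA3 and PSMA4 had log2 fold changes of -0.26, -0.21 and -0.20, and PSMA1, PSMA6 and PSMA7 of 0.02, 0.04 and 0.04. PSMA2 was at 2410, 2233 and 2331 normalized counts under morphine and at 2598, 3207 and 2585 under saline. The groups did not overlap, but saline library 2 stood above the other saline libraries (adjusted p = 0.121 in limma, 0.0475 in edgeR). The same library was the highest for PSMA4, at 2768 against 1940 and 1948 in saline libraries 1 and 3, and there the groups overlapped. In the edgeR quasi-likelihood test on recovered reads, PSMA2 and PSMA8 were the alpha subunits that fell, and in DESeq2 PSMA3 fell too. PSMA6 overlaps the coding gene PRORP in the RefSeq annotation (T2T-MMU8v2.0), so that reads of the pair may not be separable.

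PSMA8 encodes an alpha subunit of the proteasome of testis, a paralog of PSMA7, and was the most unequal member. It had 0 reads in each of the 3 morphine libraries and 39, 62 and 19 reads in saline libraries 1, 2 and 3. These are 38.5, 62.1 and 20.0 normalized counts (40.2 ± 21.1, mean ± SD, n = 3 libraries), so that the saline libraries differed widely among themselves. As the upper limit that 0 reads allow, 3 reads per morphine library were taken, which covers counting error only. The saline mean was 13.7-fold the mean of these limits. The lowest saline library was 6.28-fold the highest limit. PSMA8 is counted among the falls in limma and edgeR, but it entered the tests only through the group where it was higher, so its p-values are not given. Its paralog PSMA7 was at 4323, 4301 and 4017 normalized counts in morphine and at 4178, 3844 and 4318 in saline, with overlapping groups. Reads that such paralogs share can be counted for either, and the sources used here do not say how the authors treated them.

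Of the 5 beta subunits of the ordinary core that were measured, 1 fell (20%), near the 15.0% of all genes tested. PSMB5 (ENSMMUG00000006007), the subunit with chymotrypsin-like activity, was at 4044, 3848 and 4033 normalized counts in morphine and at 4737, 4389 and 4583 in saline. No morphine library reached the lowest saline library. The log2 fold change was -0.20 ± 0.0554 (SE), with a limma adjusted p of 0.0497. It did not pass with upper-quartile scaling (adjusted p = 0.0714), with a pseudocount of 5 (adjusted p = 0.0507) or without any 1 library (adjusted p from 0.0688 to 0.138).

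The structural beta subunits PSMB4 and PSMB3 had fold changes of similar size to PSMB5. PSMB4 was at 6440, 6537 and 6123 normalized counts in morphine and at 7163, 7164 and 7102 in saline, where the saline libraries differed little from each other. Its log2 fold change was -0.17 ± 0.0502 (SE). PSMB4 missed the threshold in limma (adjusted p = 0.0630) and passed it in edgeR (adjusted p = 0.0109). PSMB3 had a log2 fold change of -0.19 (limma adjusted p = 0.0995), and it overlaps the coding gene PIP4K2B in the RefSeq annotation. PSMB1 overlapped between groups, at -0.02. PSMB2 went the other way, with 1535, 1656 and 1586 normalized counts in morphine and 1322, 1327 and 1534 in saline (log2 fold change 0.19, limma adjusted p = 0.133).

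The immune subunits replace ordinary beta subunits in cells exposed to interferon and in immune cells, where they favour peptides for antigen presentation. PSMB8, which takes the place of PSMB5, was at 233.8, 222.4 and 226.8 normalized counts in morphine and at 258.5, 285.7 and 284.7 in saline. It fell by 17.5% (log2 fold change -0.28 ± 0.0625 SE, limma adjusted p = 0.0291). The call was lost in edgeR (adjusted p = 0.101), in DESeq2 (adjusted p = 0.214), in limma with an intensity trend and in 5 of the 6 limma fits without 1 library (adjusted p up to 0.0919), all but the fit without saline library 1. PSMB9 had 223.2, 282.3 and 212.3 normalized counts in morphine and 258.5, 338.8 and 302.7 in saline, so that the groups overlapped (log2 fold change -0.33 ± 0.154 SE, limma adjusted p = 0.173). PSMB9 overlaps TAP1 in the RefSeq annotation, where PSMB8 is the next coding gene after TAP1. PSMB11, the thymic subunit, had 2 reads in saline library 2 and 0 in the other 5 libraries.

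The balance of PSMB8 against PSMB5 did not separate the groups. The log2 ratio of their normalized counts, with 1 added to each count, is given for replicates 1, 2 and 3. It was -4.11, -4.11 and -4.15 with morphine and -4.19, -3.94 and -4.00 with saline. The group means were -4.12 ± 0.0230 and -4.04 ± 0.131 (SD, n = 3 libraries), a difference of -0.08 that is smaller than the spread among the saline libraries. Apart from the 1 added, this ratio does not depend on how the libraries are scaled. Since transcript lengths were not used it compares libraries, not the levels of the 2 genes. PSMB8 fell in limma, in libraries where 4 of 7 microglial markers rose and 2 fell, and any relation between them was not tested.

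The ATPases of the base had 2 members that fell among 6 (33.3%), against 15.0% of all genes tested. PSMC1 (ENSMMUG00000022990) was at 2342, 2239 and 2287 normalized counts in morphine and at 2758, 2770 and 2942 in saline, groups set well apart. It fell by 18.9% (log2 fold change -0.30 ± 0.0534 SE, limma adjusted p = 0.0154). It missed the threshold without morphine library 2 (adjusted p = 0.0573) and without morphine library 3 (adjusted p = 0.0526). PSMC3 was at 5497, 5167 and 4956 in morphine and at 6369, 6238 and 6053 in saline. It fell by 16.4% (limma adjusted p = 0.0326). Of the 6 limma fits that each left out a library, PSMC3 passed only in that without morphine library 1 (adjusted p = 0.0477, and up to 0.0961 in the others).

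PSMC5 varied little between libraries of a group. Its normalized counts were 10268, 10208 and 10238 in morphine and 11159, 11134 and 11095 in saline, with SDs of 30.3 and 32.0. The log2 fold change was -0.12 ± 0.0436 (SE), which did not pass in limma (adjusted p = 0.0982) and passed in edgeR (adjusted p = 0.00983). PSMC6, with a log2 fold change of -0.28, had a wide saline spread (383, 491 and 397 normalized counts) and did not pass in limma or edgeR. PSMC2 and PSMC4 overlapped between groups, with log2 fold changes of -0.04 and 0.02.

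The non-ATPase subunits of the base are scaffolds and ubiquitin receptors, and 1 of 3 fell, against 15.0% of all genes tested. PSMD1, the large scaffold, was at 3003, 3187 and 3196 normalized counts in morphine and at 3540, 3617 and 3789 in saline (log2 fold change -0.22 ± 0.0564 SE, limma adjusted p = 0.0402). The call was lost with upper-quartile scaling (adjusted p = 0.0562) and in all 6 limma fits without 1 library (adjusted p from 0.0716 to 0.109). The receptor gene HTR2B overlaps PSMD1 in the RefSeq annotation. PSMD2, the second scaffold, did not overlap between groups either, at 9585, 9318 and 9773 in morphine and 10287, 10392 and 10172 in saline, but its log2 fold change of -0.11 did not pass in limma (adjusted p = 0.158; 0.0321 in edgeR). PSMD4, a ubiquitin receptor, overlapped, with a log2 fold change of -0.06.

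The lid held the member with the lowest fold change other than PSMA8. PSMD12 (ENSMMUG00000002132), a scaffold subunit of the lid, was at 1715, 1643 and 1515 normalized counts in morphine and at 2689, 2744 and 2361 in saline. The highest morphine library lay far below the lowest saline library. PSMD12 fell by 37.4% (log2 fold change -0.68 ± 0.0865 SE, limma adjusted p = 0.00696). It passed under every setting tried for it, with a limma adjusted p of 0.0164 to 0.0303 without 1 library and of 0.000349 in edgeR. In the authors' deposited table its log2 fold change was -0.68.

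Of the other 6 lid genes 0 passed in limma, against 27.9% of all genes tested, and their fold changes lay on both sides of 0. At an unadjusted p under 0.05, and in edgeR and DESeq2, there were 2, PSMD14 and PSMD3. In edgeR 17.7% of all genes tested fell and 16.3% rose. PSMD14, the enzyme that removes ubiquitin chains at the entrance, was at 1999, 2054 and 2013 in morphine and at 2410, 2591 and 2166 in saline (log2 fold change -0.24 ± 0.0792 SE, limma adjusted p = 0.0816; 0.0303 in edgeR). It passed in limma without saline library 3 (adjusted p = 0.0444). PSMD3, a further scaffold of the lid, was higher in all morphine libraries, with 4425, 4349 and 4347 normalized counts against 3769, 3785 and 4103. Its log2 fold change of 0.17 ± 0.0562 (SE) did not pass in limma (adjusted p = 0.0773) and passed in edgeR (adjusted p = 0.0234). PSMD6, PSMD8, PSMD11 and PSMD13 overlapped between groups, with log2 fold changes of -0.07, 0.04, -0.03 and -0.02.

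**Figure D3:**
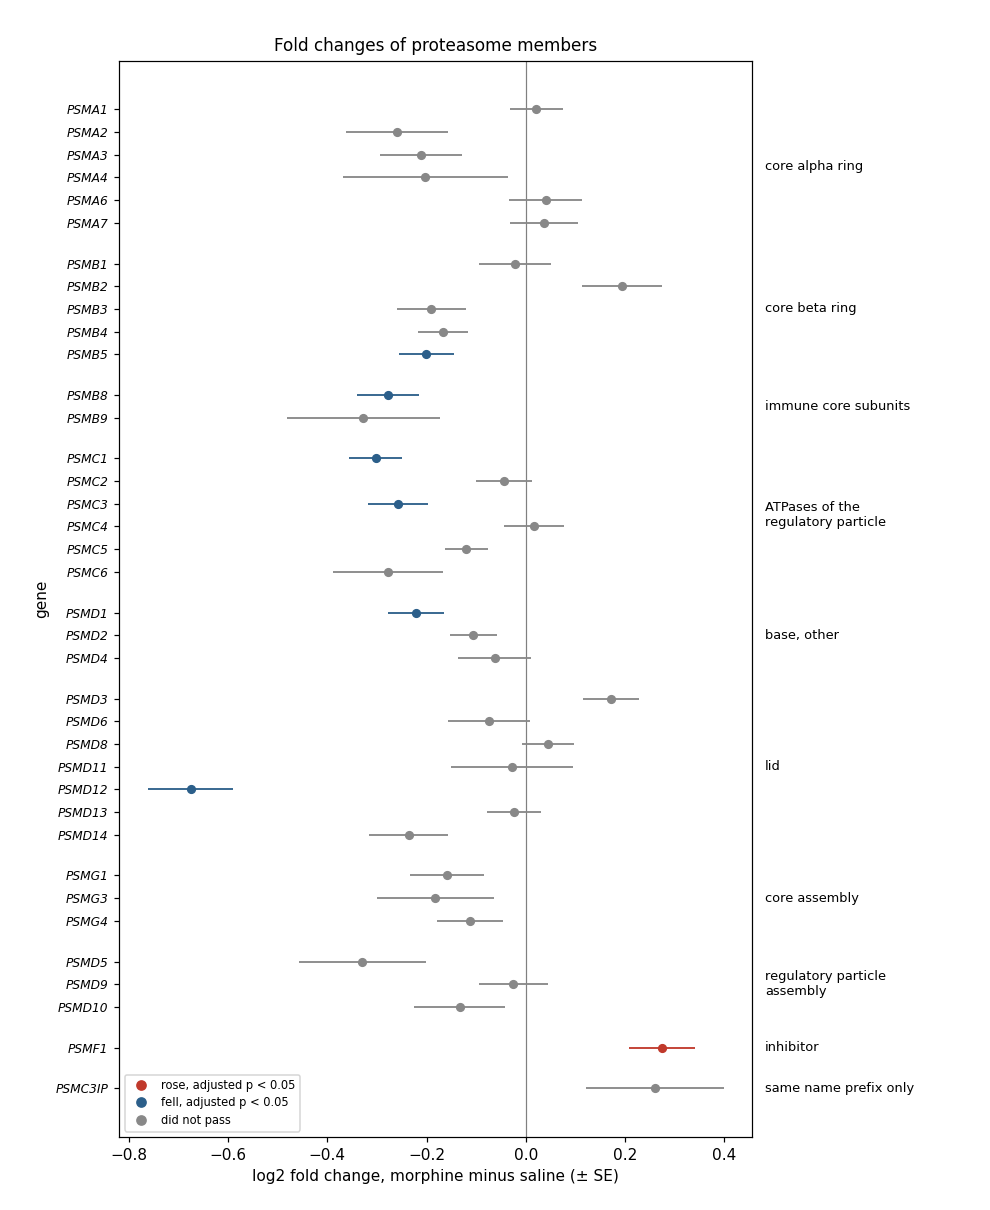
Log2 fold change, morphine minus saline, of each member in limma, with bars of 1 SE, by role in the proteasome. Blue marks the genes that fell and red the gene that rose at an adjusted p under 0.05, and grey those that did not pass. PSMA8 is not drawn. PSMD12 is lowest at -0.68 and PSMF1 highest at 0.27.

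Of the 6 assembly factors 0 passed in limma, against 27.9% of all genes tested, and all 6 fold changes were below 0. PSMD5 alone had an unadjusted p under 0.05, and edgeR and DESeq2 called 0 of the 6. Of the chaperones of the core, PSMG1 was at 1072, 1141 and 1210 normalized counts in morphine and at 1245, 1357 and 1220 in saline, without overlap (log2 fold change -0.16, limma adjusted p = 0.169). PSMG3 and PSMG4 overlapped, at -0.18 and -0.11. Of the chaperones of the base, PSMD5 had 306.1, 350.4 and 318.0 normalized counts in morphine and 364.1, 484.1 and 384.9 in saline (log2 fold change -0.33 ± 0.128 SE, limma adjusted p = 0.115). PSMD10 and PSMD9 overlapped, at -0.13 and -0.03. This class holds only genes with the prefixes of the members. PAAF1, listed with the partner genes, overlapped between groups, with a log2 fold change of 0.01.

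PSMF1 encodes a protein that inhibits the isolated core particle and takes part in proteasome transport in neurons, and it was the one member that rose. It was at 2254, 2295 and 2046 normalized counts in morphine and at 1773, 1883 and 1790 in saline. All morphine libraries were higher, and morphine library 3 was nearest to the controls. PSMF1 rose by 21.0% (log2 fold change 0.27 ± 0.0668 SE, limma adjusted p = 0.0356; 0.0102 in edgeR). When each library was left out in turn, PSMF1 passed only without morphine library 3 (adjusted p = 0.0403, and up to 0.104 in the other fits). PSMC3IP, which is no part of the proteasome, overlapped between groups, at 568.6, 611.0 and 579.4 in morphine and 576.2, 404.9 and 502.0 in saline.

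**Figure D4:**
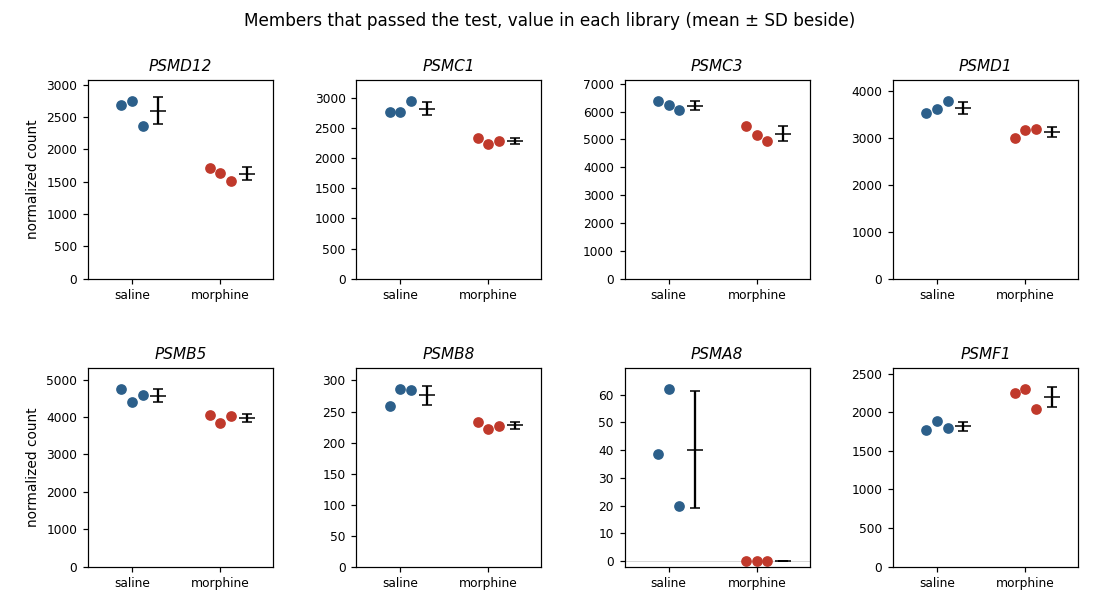
Normalized counts of the 8 members that passed in limma, one point per library, saline in blue and morphine in red, with the mean ± SD of 3 libraries beside them. Axes start at 0, or just below it for PSMA8, whose 3 morphine points are at 0. PSMF1 is the panel in which the morphine points are higher.

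The count of calls depended on the test. In edgeR on the recovered reads 11 of 38 members fell (28.9%) and 2 rose (5.26%), against 17.7% and 16.3% of all genes tested. Without PSMA8 10 of 37 fell (27.0%). The 2 rises in edgeR were PSMF1 and PSMD3. By particle, 7 of 16 genes of the regulatory particle and 4 of 14 of the core particle fell in edgeR, against 4 and 3 in limma. Without PSMA8 the core particle had 3 of 13 in edgeR and 2 in limma. Leaving out morphine library 1, 2 or 3 lowered the count of falls in limma from 7 to 4, 2 and 2. Leaving out saline library 1, 2 or 3 lowered it to 4, 3 and 4. PSMA8 is among the falls in each of these fits, and their shares over all genes are not given.

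The partner genes of the proteasome, 40 measured rows of a fixed list, held 7 falls (17.5%) and 3 rises (7.5%) in limma, with a median log2 fold change of -0.03. Over all genes tested these shares were 15.0% and 12.9%, so that the share of falls was near the background. The list and its groups were chosen with earlier results of these data known, so shares within them are no independent evidence. Of 8 activators and remaining subunits 1 rose and 1 fell. PSME1, a subunit of the activator ring that interferon induces, was at 2225, 2381 and 2305 normalized counts in morphine and at 2023, 2007 and 2015 in saline. It rose by 14.3% (limma adjusted p = 0.0424), but not without any 1 library (adjusted p from 0.0708 to 0.122) or with TMM scaling, and the coding gene EMC9 overlaps it in the RefSeq annotation. Its ring partner PSME2 had a log2 fold change of 0.13, PSME3 of -0.04 and PSME4 of -0.18, none of which passed. ECPAS, which tethers and remodels proteasomes, fell by 24.6%, from 3866, 4319 and 3727 in saline to 2843, 2995 and 3132 in morphine (limma adjusted p = 0.0197). It passed without morphine library 3, saline library 2 or saline library 3, and not without the other 3 libraries (adjusted p up to 0.0637).

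Of 10 ubiquitin enzymes and shuttle factors 5 fell and 0 rose in limma, against 15.0% and 12.9% of all genes tested. As the list was chosen with earlier results known, this comparison only describes these genes. Rises were also 0 at an unadjusted p under 0.05, in edgeR (against 16.3% of all genes tested) and in DESeq2. UBQLN1, a shuttle that carries ubiquitinated proteins to the proteasome, was at 5683, 5634 and 5793 normalized counts in morphine and at 7607, 8494 and 7512 in saline. It fell by 27.4% (limma adjusted p = 0.00903), and it passed in all 6 fits without 1 library. UCHL5, a deubiquitinase bound to the base, fell by 34.2%, and UBE3A, a ubiquitin ligase, fell by 23.3%. UBQLN4, a further shuttle, fell by 18.6%, and TXNL1, a thioredoxin-like protein of the regulatory particle, fell by 18.6%. With a library left out, TXNL1 passed in 0 of 6 fits, UCHL5 only without morphine library 3, UBE3A without saline library 2 or 3, and UBQLN4 without morphine library 2 or saline library 1. USP14, the other deubiquitinase of the base, had a log2 fold change of -0.20 (limma adjusted p = 0.0610).

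NFE2L1 itself did not differ beyond its spread, at 9809, 9318 and 10251 normalized counts in morphine and 9850, 9504 and 10339 in saline (log2 fold change -0.02 ± 0.0635 SE). Among 9 genes of its regulation 1 fell and 0 rose in limma, against 15.0% and 12.9% of all genes tested. KEAP1 had an unadjusted p under 0.05 and rose in edgeR and DESeq2 (log2 fold change 0.16). NFE2L2 also had an unadjusted p under 0.05 and fell in edgeR (adjusted p = 0.0421), with a log2 fold change of -1.19 in limma and 1 morphine library far below the others. MAFK, a small partner protein of NFE2L1 on DNA, fell by 25.3%, from 2546 ± 56.9 to 1904 ± 86.7 (mean ± SD, n = 3 libraries per group; limma adjusted p = 0.00788). Of 5 rows of ubiquitin genes and activating enzymes, 0 passed in limma and 2 had an unadjusted p under 0.05. In edgeR and DESeq2 UBA1 rose and UBA6 fell, with log2 fold changes of 0.16 and -0.27.

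Of 8 measured genes of interferon signalling and antigen presentation, 2 rose and 0 fell in limma, against 12.9% and 15.0% of all genes tested. Falls were also 0 at an unadjusted p under 0.05, in edgeR (against 17.7% of all genes tested) and in DESeq2. STAT2, a transcription factor of interferon signalling, was at 1931, 1891 and 1970 normalized counts in morphine and at 1359, 1474 and 1377 in saline, without overlap, and rose by 37.6% (limma adjusted p = 0.00606). CD74, the invariant chain of class II antigen presentation in microglia, was at 1892, 1905 and 1814 in morphine and at 1287, 1409 and 1312 in saline, and rose by 40.0% (limma adjusted p = 0.00605). Both passed in all 6 limma fits without 1 library. IRF1, which acts on the promoters of immune subunits, overlapped between groups, with a log2 fold change of -0.26.

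**Figure D5:**
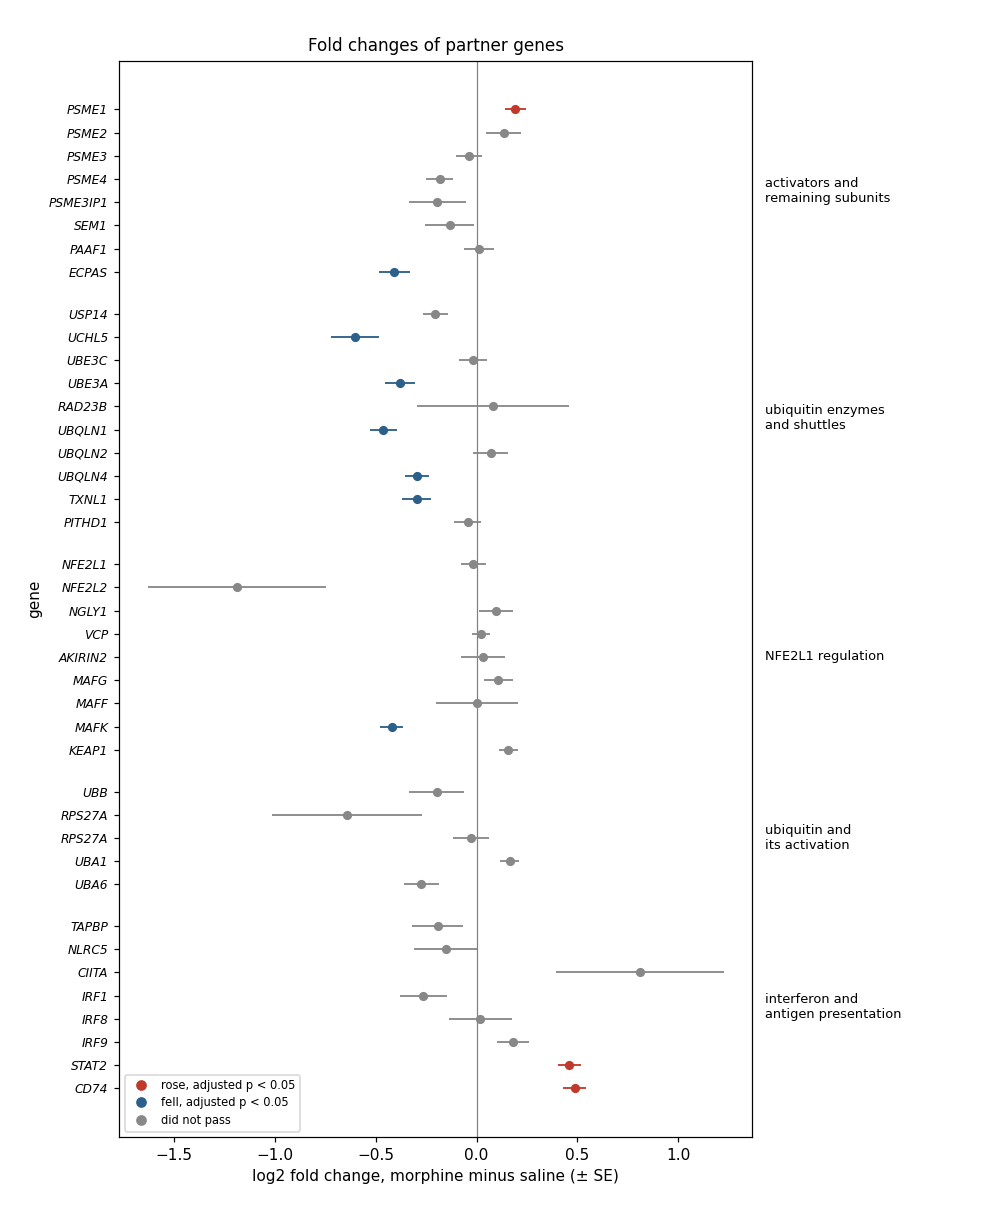
Log2 fold change, morphine minus saline, of the 40 partner rows in limma, with bars of 1 SE, by group. Blue marks genes that fell, red those that rose and grey those that did not pass, and RPS27A has 2 rows because 2 identifiers carry its symbol. UBQLN1, UCHL5, ECPAS, UBE3A and MAFK lie to the left, and NFE2L1 lies near 0.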

How the data were processed

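Per the file headers, the deposited table holds size-factor normalized counts (the signal used here) beside the authors' log2 fold changes, p-values and test statistic, a score. Among tools, the submitters' processing notes list DESeq2 1.18.1, Bowtie2 2.1.0 and StringTie, and as build hg19, without saying what each was used for. The sources used here do not say how counting handled strand. Reads were recovered from the step between low values, and 100% of values came out whole to within 0.001. In saline library 2 a read is worth close to 1, so that this check says less there. Symbols matched 15436 of 23191 identifiers (66.6%).

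Groups were compared with limma 3.58.1 (R 4.3.3), fitted to log2(value + 1) with a single term for group, in 16595 genes whose mean was at least 10. Two-sided p-values received a Benjamini-Hochberg adjustment across these genes. Shares over all genes at an unadjusted p under 0.05, or by direction in DESeq2, are not given. Pairs of libraries within a group differed by more than sampling noise (mean chi-square from 17.5 to 23.8, where noise gives 1). Alternatives were edgeR 4.0.16 and DESeq2 1.42.0 on recovered reads, the authors' deposited comparison, a limma intensity trend, a replicate block, TMM or upper-quartile scaling, a pseudocount of 0.5 or 5, a minimum of 50 or none, a threshold of 0.01, and leaving out single libraries. The scripts were checked on simulated counts. Members and lists were chosen with earlier results of these data known. Genes named by rule were PSMB5, PSMB8, PSMB9, PSMF1, members and partners past the threshold, the smallest adjusted p in each other class, NFE2L1 and PSME1 to PSME4. Other genes with values were chosen after these had been seen. Promoter and protein sequences were not used here. T and B cell markers were low: of 3 tested, 1 rose and 1 fell. Of the fixed list of partner genes, 3 are not reported here. Of the other 48 symbols, those without a row in the table were not analysed here.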

Additional observations from a re-analysis of the deposited data

How the results depend on the processing

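The count of members that fell was 7 and that of members that rose was 1. The counts were 3 and 0 with no filter, and 2 and 0 at an adjusted p under 0.01. They were 11 and 2 both in limma with an intensity trend and in edgeR. In DESeq2 and in the authors' deposited comparison they were 13 and 2. PSMA8 is among the falls in each of these. Over all 16595 genes tested, 4631 were called in the main fit, 5636 in edgeR and 6105 in DESeq2. Larger counts of members thus came with more calls over all genes. For the other settings the share over all genes is not given. Without 1 library 2 to 4 fell and 0 or 1 rose. Of the 8 members called, 7 were also called in edgeR, in DESeq2 and in the authors' deposited comparison, and PSMB8 was not. PSMD12 passed in each fit. Among partner genes 7 fell and 3 rose. There were 5 rises with upper-quartile scaling, an intensity trend, edgeR, DESeq2 and the authors' comparison, and 2 falls at an adjusted p under 0.01. Without 1 library 2 to 6 fell and 2 rose. With the replicate number as a block 2 members fell and 0 rose, and 0 partner genes fell and 1 rose. The numbers do not pair the libraries: deviations of same-numbered libraries correlated at -0.06, -0.00 and -0.03. RAD23B changed sign without saline library 3, from 0.08 to -0.35 (limma adjusted p = 0.0268), and reached 0.30 without saline library 1. The group difference in the log2 ratio of PSMB8 to PSMB5, morphine minus saline, ranged from -0.15 to -0.02 without 1 library. The causes were not tested. Ratios for PSMB9 and PSMB10 were not run, since PSMB6, PSMB7 and PSMB10 were not analysed here.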

Other observations

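In RAD23B and NFE2L2 a single library stood far from the other 2 of its group. RAD23B, a ubiquitin shuttle, was at 3214 normalized counts in saline library 3, against 7936 and 7789 in saline and 6156 to 6190 in morphine. NFE2L2, a transcription factor of the oxidative stress response, was at 1074 in morphine library 3, against 3142 and 2974 in morphine and 4806 to 5126 in saline. Without morphine library 3 NFE2L2 fell by 0.69 on the log2 scale (limma adjusted p = 0.0174), while its value over all libraries, -1.19, did not pass in limma (adjusted p = 0.104) or DESeq2 (adjusted p = 0.0632) and passed in edgeR (adjusted p = 0.0421) and in limma with an intensity trend (adjusted p = 0.0319). These genes were singled out after their values had been seen.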
